A study of Homo sapiens with 12 samples.

Results

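The genes described here encode the proteins of the cytosolic ribosome. They were taken by name from the deposited table of counts: RPL and RPS followed by a number (with A, X or L where the symbol has it), the stalk genes RPLP0 to RPLP2, RPSA and FAU. RPS27L was left out, and 1 other gene of the family is not analysed here. Of 50006 rows in the table, 103 met the rule. They stand for 83 genes, because 20 rows are copies of 8 of these genes on alternate or patch sequences of the genome, and each gene was summed with its copies. The 83 genes comprised 49 of the large subunit, 31 of the small subunit (RPSA and FAU among them) and the 3 of the stalk.

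RNA was measured in TK6 cells, lymphoblasts derived from human B cells and grown as an established line, a common choice for tests of mutagens. Cells had been exposed for 24 h to 3-methylcholanthrene, a polycyclic aromatic hydrocarbon and ligand of the aryl hydrocarbon receptor, at 0 µg/mL (control), 0.0004 µg/mL (low), 0.04 µg/mL (medium) or 4 µg/mL (high), with 3 libraries in each of the 4 groups. All groups are the same unmodified line. No label states whether replicate libraries are separate cultures; the p-values below therefore rest on library-to-library spread that may be technical.

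Ribosomal proteins are made in near-equal amounts and built, with ribosomal RNA, into a large and a small subunit. Most of their mRNAs begin with a terminal oligopyrimidine (TOP) tract, a C followed by an unbroken run of C and T, through which mTORC1 and the protein LARP1 set their translation. RPL5 and RPL11, with 5S ribosomal RNA, also bind and restrain MDM2 when ribosome assembly fails, which links the family to p53 in cells under genotoxic stress.

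The starts of members discussed below are shown to let the tract be seen and to set the main genes against their paralogs. Each line gives the strand of the gene as RefSeq has it on GRCh38.p14, 10 bases before an annotated start followed by 20 from it. RPS19, RPL11 and RPL26L1 had 2 listed starts each. For a gene with several, a start with the tract was shown where any had it. Capitals mark the pyrimidine run that begins at the start, where it is a C with at least 4 more C or T.
RPLP0: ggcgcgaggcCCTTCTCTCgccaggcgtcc
RPLP1: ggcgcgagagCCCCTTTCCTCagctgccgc
RPSA: tgccgcctgtCTTTTCCgtgctacctgcag
RPS6: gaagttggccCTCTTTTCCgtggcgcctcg
RPS19: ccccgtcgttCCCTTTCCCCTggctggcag
RPL11: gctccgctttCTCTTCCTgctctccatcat
RPL13A: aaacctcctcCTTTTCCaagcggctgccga
RPL22: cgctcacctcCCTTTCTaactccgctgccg
RPL22L1: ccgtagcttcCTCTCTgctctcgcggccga
RPL26: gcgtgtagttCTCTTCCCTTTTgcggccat
RPL26L1: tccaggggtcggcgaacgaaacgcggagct
RPL7L1: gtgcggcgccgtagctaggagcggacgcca
The windows lie at chr12:120201092-120201121 (minus strand) for RPLP0, chr15:69452808-69452837 (plus) for RPLP1, chr3:39406710-39406739 (plus) for RPSA, chr9:19380217-19380246 (minus) for RPS6, chr19:41860245-41860274 (plus) for RPS19 and chr1:23691796-23691825 (plus) for RPL11. The others lie at chr19:49487598-49487627 (plus) for RPL13A, chr1:6199576-6199605 (minus) for RPL22, chr3:170870176-170870205 (minus) for RPL22L1, chr17:8383174-8383203 (minus) for RPL26, chr5:172958719-172958748 (plus) for RPL26L1 and chr6:42879606-42879635 (plus) for RPL7L1. The longest run among those shown was 12 bases, in RPL26, and its paralog RPL26L1 had none at its listed starts.

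The RefSeq table of starts matched 66 of the 83 members. A tract at a listed start was found in 48 of these 66 (72.7%), against 1404 of all 27305 genes in the table (5.14%). Per window of 300 bases around a start, it was found in 48 of 82 windows of members (58.5%) and in 1429 of all 35116 (4.07%). The search read only the strand of the gene and only from the annotated start, and a match is a description of these letters. Among the members without the tract at a listed start were RPL4, RPL3, RPL26L1, RPL7L1 and RPL10L.

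Library totals ran from 9163368 to 19841387 counts. B-cell markers were present (MS4A1 at 203 to 288 CPM, PAX5 at 485 to 828 CPM), while the row of HLA-DRA had 14 counts in all 12 libraries. Markers were read from the row of the symbol alone, without any copy rows, so the count of HLA-DRA cannot be read as low expression. The markers CD8A, GNLY, HBB, HBA1, ALAS2, EPCAM and COL1A2 were at 0 everywhere. Of the markers for other cells KRT8 was the highest, at 107 to 158 CPM. The libraries low 3 and high 3 stood apart: the mitochondrial 16S ribosomal RNA (MT-RNR2) took 7.99% and 7.96% of their counts, against 1.43% to 5.52% in the other 10.

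Together the 83 genes took 4.60% to 6.78% of the counts outside the mitochondrial genome, and that share did not separate the groups. In the control libraries the share of nuclear counts was 5.08%, 6.05% and 6.39%. It was 6.05%, 6.71% and 4.60% in low, 5.37%, 6.09% and 6.26% in medium, and 4.75%, 6.78% and 4.77% in high. The mean shares were 5.84% ± 0.677, 5.79% ± 1.08, 5.91% ± 0.472 and 5.44% ± 1.17 (SD, n = 3) from control to high, and the 4 groups overlapped. The highest library of all and 2 of the 3 lowest carried the high concentration. In bulk RNA, fewer cells with a transcript and less of it per cell cannot be told apart.

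The share was lower where 16S RNA was higher. Over the 12 libraries Pearson's r between them was -0.92 and Spearman's rho was -0.92, and r was -0.91 over the 10 libraries left without low 3 and high 3. Both measures come from the same libraries and the same capture of polyadenylated RNA. The small RNAs of the 7SK, 7SL and RMRP genes, which carry no poly(A) tail, summed to 141 and 110 CPM in low 3 and high 3 and to 98.7 CPM in high 1. They summed to 6.2 and 8.51 CPM in high 2 and low 2, the libraries where the ribosomal protein genes took the largest shares. The part of RNA quality or of the capture in the share was not tested. The 35 rows named as pseudogenes of members added at most a small amount to the share, which in control 1, for example, was 5.10% with them.

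By gene, too, libraries of the same group differed from each other. Of 77 members with at least 1000 counts in all, 60 were lowest in low 3, high 1 or high 3, and 54 were highest in low 2 or high 2. The typical (median) SD between libraries of a group was 0.28 on the log2 scale, and the typical SD of the 4 group means was 0.09. The spread within groups was the larger in 76 of the 77. Means of 3 libraries vary less than single libraries even where groups do not differ, and most members vary together. The comparison therefore cannot show whether the groups differ. The ratio of large-subunit to small-subunit counts lay between 1.90, in low 2, and 2.34, in high 3.

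**Figure D1:**
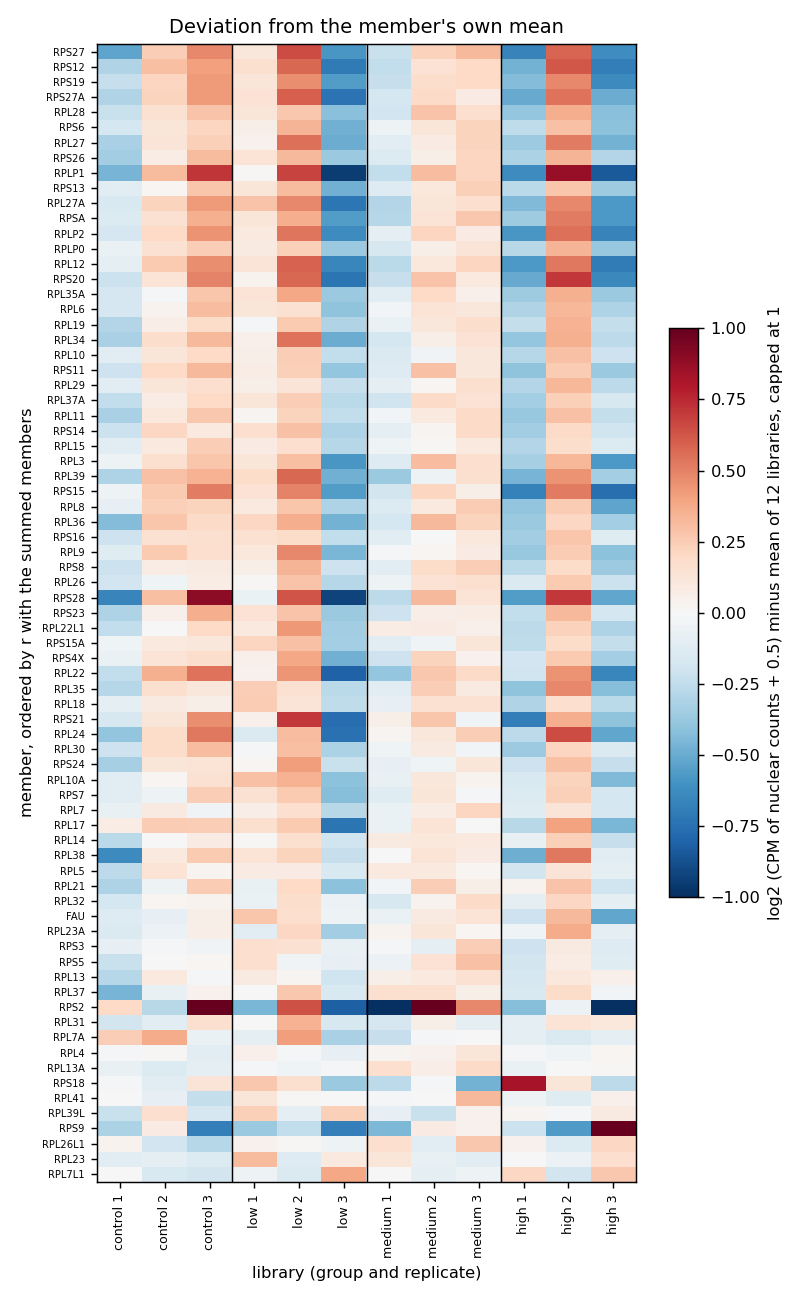
Deviation of each of 75 members from its own mean over the 12 libraries, in log2 of CPM of nuclear counts plus 0.5, with members ordered by their correlation with the summed members and libraries in order of concentration. Most rows are low (blue) in low 3, high 1 and high 3 and high (red) in low 2 and high 2, and the rows at the foot, from RPL4 to RPL7L1, do not follow this pattern.

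Most members varied with the family from library to library. Over the 12 libraries, r between a member and the summed members had a median of 0.93, and 50 of the 80 members with enough counts to be tested were above 0.9. A member is part of that sum, and libraries share depth and capture. Of the 11928 other genes compared, 275 were above 0.9, and their median r was -0.17. Among the other genes most like the family were ATP5MC1, a subunit of the mitochondrial ATP synthase (r = 0.99), and JTB (r = 0.99).

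A few members did not follow the family. RPL7L1, a paralog that acts in ribosome assembly rather than in the finished ribosome, ran opposite to it, with r = -0.91. RPL23, RPL26L1, RPS9, RPL39L, RPS10 and RPL41 also had r below 0, at -0.42, -0.36, -0.34, -0.26, -0.07 and -0.05. RPL4 and RPL13A had values near 0, at 0.11 and 0.07, and they were also the steadiest members. Between the lowest and the highest library RPL4 differed 1.18-fold, RPL13A 1.26-fold, RPL32 1.30-fold and RPL5 1.32-fold in CPM of nuclear counts. Among members without copies the widest spreads were those of RPS28 (3.55-fold), RPLP1 (3.53-fold) and RPS21 (2.79-fold), followed on the log2 scale by RPS20 and RPL24, with ranges of 1.44 and 1.40. RPS28, a small protein at the exit of the mRNA channel, ran from 51.4 to 182 CPM of nuclear counts, lowest in low 3 and highest in control 3.

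Short members tended to spread more. Over 67 members without copies, read-through rows or a paralog role, Spearman's rho between coding length and the log2 range over libraries was -0.39 and Pearson's r was -0.38. The median log2 range was 0.84 in the 35 members of at most 453 coding bases and 0.69 in the 32 longer ones. The median range was 0.79 in the 40 of these members with a TOP tract at a listed start and 0.76 in the 14 without. The rest of the 67 had no listed start. This split rests on the exact annotated base: RPL3, among the 14, had a run of 4 bases where 5 were required. The comparison therefore cannot show whether the tract matters for the spread.

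Levels between genes were set side by side per kb of exon, averaged over the 12 libraries. Among the highest were RPLP0 at 1848 CPM per kb, RPL13A at 1740, RPL41 at 1504 and RPL3 at 1347. The 67 members with neither copies, read-through rows nor a paralog role ran from 43.4 to 1848 CPM per kb, with a median of 523. The exon length is the union over all transcripts of a gene, which is far longer than the usual mRNA for some: RPL37, the lowest of the 67, has 7573 exon bases in the table and 291 coding bases. Per kb of coding sequence in GENCODE v29 the order changes, with RPL41 at 13550 CPM per kb, RPL39 at 3246 and RPL13A at 3219.

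The low end of that order is taken by rows whose reads can be assigned elsewhere, and by paralogs. Of the 12 lowest members, 3 were paralogs. Of the other 9, 6 had copy rows and 3 had a read-through row (a row that joins the gene to its neighbour) over their exons. RPL3L, one of the paralogs, had a copy row as well. The 7 members with copies that are not paralogs, among them RPS9, RPS18, RPS25 and RPL7A, ran from 1.72 (RPS3A) to 49.5 CPM per kb (RPS2). RPL36A, RPS10 and RPL17, with read-through rows, had 0.457, 1.36 and 7.04 CPM per kb. How reads with several alignments or on overlapping rows were counted is not given in the sources used here, so levels of these 10 genes are uncertain and cannot be read as low expression. The number of pseudogene loci in RefSeq, a median of 15 per member, showed little relation with level (Spearman's rho of 0.06 over the 67 members). Exons of 5 members overlapped rows of the opposite strand by over 40%, the most in RPL10 at 61.2%, and these levels are uncertain too because the use of strand is not given.

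Of the 6 paralogs, RPL10L and RPL3L were nearly or wholly without counts, and the others stood below their partners. RPL10L, a testis form of RPL10, had 0 counts in every library, which allows at most 3 counts in each. RPL3L, a muscle form of RPL3, had 2 counts in all, in 1 library. Per kb of exon and per library, RPL22L1 stood at 45.3% to 79.8% of RPL22, RPL7L1 at 13.6% to 27.0% of RPL7, RPL26L1 at 4.07% to 7.20% of RPL26 and RPL39L at 2.94% to 7.67% of RPL39. Per kb of coding sequence the shares were 45.4% to 80.0% for RPL22L1, 33.3% to 66.0% for RPL7L1, 5.96% to 10.6% for RPL26L1 and 5.5% to 14.3% for RPL39L. Reads that fit both a paralog and its partner may have been split or lost, so these ratios are uncertain.

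No member was called in any treated group. With edgeR's quasi-likelihood test over 12024 genes, of which 80 were members, 0 members and 0% of all genes passed an adjusted p of 0.05 in low, in medium, in high, in the test of any group or in the trend over concentrations. RPL10L, RPL3L and RPL36A had too few counts to be tested. At an unadjusted p under 0.05 there were 0 members in low (2.8% of all genes), 1 in medium (1.98%) and 3 in high (3.13%). In the test of any group and in the trend there were 2 each (1.75% and 2.89%). DESeq2, limma voom and limma-trend also called 0 members.

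**Figure D2:**
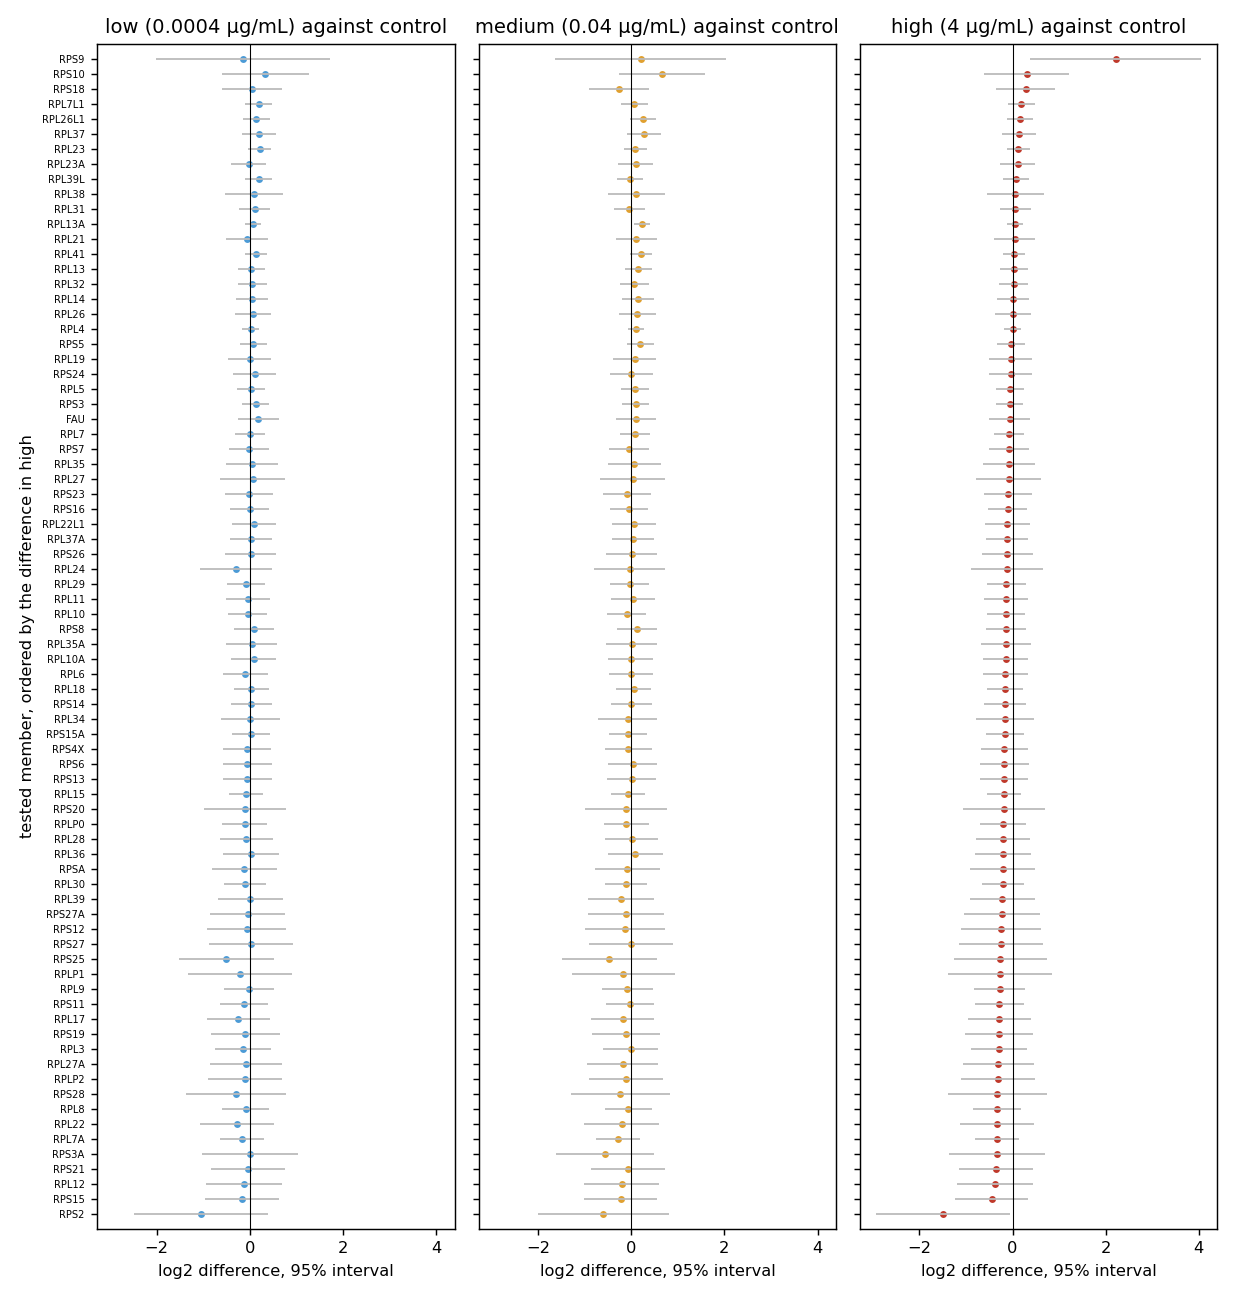
Log2 differences from control of 78 tested members in low, medium and high, with 95% intervals from edgeR, ordered by the difference in high. In high most points lie a little left of 0, and intervals that exclude 0 without adjustment include those of RPS9 and RPS2 in high and RPL13A in medium.

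In high, 61 members lay below control and 19 above it. Of all genes 49.3% lay below and 50.7% above. The median log2 difference was -0.15 for members and 0.00 for all genes. Most members vary together across libraries, so these 80 differences are not independent. The replicate SD of the members' median deviation was 0.26, larger than that median. Without low 3 and high 3 the median in high was -0.02, and over the fits with 1 library left out it ran from -0.39 without high 2 to -0.01 without high 3. In low 43 members lay below and 37 above control (48.7% and 51.3% of all genes), with a median of -0.01. In medium 42 lay below and 38 above (50.2% and 49.8% of all genes), also with a median near 0 (-0.01). The 95% interval stayed within -1 and 1 for 71 of the 80 members in low, 69 in medium and 61 in high.

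The stalk genes lay below control in each treated group, within the spread of the libraries. RPLP0, RPLP1 and RPLP2 form the flexible stalk that recruits translation factors to the ribosome. RPLP0 had 2083, 2456 and 2552 CPM in control, 2278, 2587 and 1544 in low, 1877, 2246 and 2303 in medium, and 1712, 2675 and 1528 in high. RPLP1 had 324, 563 and 721 CPM in control, 441, 714 and 212 in low, 362, 545 and 500 in medium, and 274, 788 and 227 in high. For both genes high 2 was above every other library, and low 3, high 1 and high 3 were below every control. RPLP2 averaged 317 ± 171 CPM in high and 410 ± 82.0 CPM in control (SD, n = 3 each). The log2 differences in high were -0.20 ± 0.22 (SE) for RPLP0, -0.26 ± 0.51 for RPLP1 and -0.31 ± 0.36 for RPLP2, with edgeR's adjusted p at 0.81 or above, and without low 3 and high 3 that of RPLP1 was 0.04. With 1 library left out they lay between -0.50 (without high 2) and -0.05 (without high 3) for RPLP0 and between -0.87 and -0.08, for the same libraries, for RPLP2.

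The 5S particle and the other proteins known to bind MDM2 showed no change that passed the test. RPL5 had 840, 1122 and 1015 CPM in control, 1048, 1073 and 832 in low, 1035, 1070 and 987 in medium, and 844, 1068 and 864 in high. RPL11 had 541, 739 and 806 CPM in control, 677, 795 and 524 in low, 639, 719 and 745 in medium, and 496, 804 and 524 in high. In both genes the 4 groups overlapped throughout. The log2 difference of RPL5 in high was -0.04, with a 95% interval of -0.34 to 0.26, and that of RPL11 was -0.14, with an interval of -0.61 to 0.34. Of the 9 genes listed as MDM2 binders, 7 lay below control in high (49.3% of all genes), with a median of -0.07. Within the list RPS3 had 1301 ± 169 CPM in high and 1412 ± 42.9 CPM in control, RPS7 389 ± 74.5 and 425 ± 53.1 CPM, and RPL26 446 ± 94.2 and 461 ± 38.4 CPM (SD, n = 3 each). After scaling for composition the fitted log2 difference of RPL26 was 0.01, so it is not among the 7.

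RPL23, also an MDM2 binder, was the member of smallest p in low. It had 824, 848 and 798 CPM in control, 1088, 821 and 873 in low, 934, 836 and 793 in medium, and 851, 827 and 914 in high. Low 1 was the highest library, while low 2 lay inside the control range. The log2 difference in low was 0.21 ± 0.11 (SE, edgeR's adjusted p = 0.911), and without low 1 it was 0.09. Next in low by p were RPS2, RPL39L and RPL7L1, with log2 differences of -1.05 ± 0.65, 0.19 ± 0.13 and 0.19 ± 0.13 (SE). Without low 3 the difference of RPL7L1 was 0.04, and that of RPL39L lay between 0.10 (without control 1) and 0.32 (without control 2).

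The large-subunit genes without the stalk lay below control in high for 30 of 46 tested (49.3% of all genes), with a median log2 difference of -0.12. RPL4, a core protein that lines the exit tunnel, had 2558, 2629 and 2341 CPM in control, 2610, 2561 and 2224 in low, 2519, 2629 and 2705 in medium, and 2429, 2421 and 2384 in high. Its 95% interval in high was -0.18 to 0.18. RPL3, near the peptidyl transferase centre, averaged 1505 ± 549 CPM in high and 1921 ± 208 CPM in control (SD, n = 3 each), a log2 difference of -0.29 ± 0.27 (SE) that was -0.64 without high 2 and -0.10 without high 3. RPL10, one of the last proteins to join the subunit, averaged 916 ± 229 CPM in high and 1050 ± 110 CPM in control. RPL41, the smallest ribosomal protein, averaged 957 ± 26.8 CPM in high and 971 ± 87.2 CPM in control, with a fitted log2 difference of 0.04 after scaling.

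RPL13A, which besides its place in the ribosome is known for silencing inflammatory mRNAs, was the member of smallest p in medium. It had 1917, 1858 and 1872 CPM in control, 1959, 1964 and 1823 in low, 2179, 2093 and 2229 in medium, and 1830, 1953 and 1851 in high. All 3 medium libraries lay above every control, and the low and high libraries overlapped the controls. The log2 difference in medium was 0.24 ± 0.08 (SE), with an unadjusted p of 0.00959 and an adjusted p of 0.998 in edgeR. Members above every control in medium numbered 2, RPL13A and RPS10 (3.26% of all genes), and 1 was below every control, RPS3A (8.31% of all genes). RPS10, with a read-through row, held only 6 to 21 counts per library, and RPS3A, with a copy row, 14 to 104. In low no member stood apart from the controls in either direction (2.34% of all genes above and 4.98% below). The next 3 by p in medium were RPL26L1 at 0.26 ± 0.13, RPL41 at 0.21 ± 0.11 and RPL37 at 0.27 ± 0.16 (log2 difference ± SE). Without medium 3 RPL26L1 was at 0.16 and RPL41 at 0.09, and without control 1 RPL37 was at 0.12.

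The small-subunit genes lay below control in high for 28 of 31 (49.3% of all genes), with a median log2 difference of -0.18. Most members vary together, so the counts by subunit and by list are not separate results. RPS6, the substrate of S6 kinase, had 971, 1204 and 1253 CPM in control, 1115, 1390 and 719 in low, 1016, 1179 and 1236 in medium, and 873, 1294 and 751 in high. RPSA, which is also known as a laminin receptor, had 1131, 1401 and 1569 CPM in control, 1326, 1606 and 774 in low, 982, 1355 and 1451 in medium, and 922, 1722 and 760 in high. In both, high 1 and high 3 were below every control and high 2 above every control. The log2 differences in high were -0.18 ± 0.24 (SE) for RPS6 and -0.21 ± 0.32 for RPSA, and the value of RPSA was near 0 without low 3 and high 3 (0.0036). That of RPS6 was -0.45 without high 2 and -0.02 without high 3.

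RPS19, the gene most often mutated in Diamond-Blackfan anaemia, averaged 359 ± 167 CPM in high and 455 ± 98.4 CPM in control. RPS14, whose loss is linked to the 5q- syndrome, averaged 713 ± 158 CPM in high and 831 ± 126 CPM in control (SD, n = 3 each). Of 18 genes on a list of Diamond-Blackfan genes 15 lay below control in high (49.3% of all genes), with a median log2 difference of -0.13. The members fused to ubiquitin or a ubiquitin-like protein were RPS27A, with 394 ± 189 CPM in high and 480 ± 115 CPM in control, and FAU, with 166 ± 55.1 and 180 ± 10.9 CPM (SD, n = 3 each).

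The members of smallest p in high were members with copy rows. RPS9 had 6.65, 8.97 and 4.98 CPM in control, 6.26, 7.02 and 4.63 in low, 5.78, 8.79 and 8.35 in medium, and 6.78, 5.34 and 79.3 in high. A single library thus stood far above the other 11, and in it 865 counts fell on 1 copy row on an alternate sequence of chromosome 19, which held 12 to 39 counts elsewhere. The log2 difference in high was 2.22 ± 0.84 (SE, edgeR's unadjusted p = 0.0219, adjusted p = 0.81). It was -0.44 with the row of the symbol alone and -0.12 without high 3.

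RPS2 was next. It had 44.8, 32.3 and 149 CPM in control, 27.7, 61.0 and 20 in low, 18.1, 77.6 and 52.3 in medium, and 27.3, 36.1 and 15.1 in high. Control 3 was the highest library, with 1678 counts on the copy row. The log2 difference in high was -1.49 ± 0.66 (SE) and without control 3 it was -0.47, while in low, without control 3, it was -0.03. RPL7A, also with a copy row, lay below every control in all 3 high libraries, at 8.42 ± 0.180 CPM in high and 11.1 ± 1.88 CPM in control (SD, n = 3 each). By CPM of all counts, members below every control in high numbered 2 of 80 (8.29% of all genes). Those above every control numbered 0 (1.85% of all genes). Mitochondrial rows took more of the counts in each high library than in any control, which lowers the CPM of nuclear genes in high.

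Among the paralogs that were expressed, RPL7L1 differed most from the family. It had 396, 362 and 345 CPM in control, 377, 363 and 478 in low, 382, 370 and 371 in medium, and 437, 338 and 437 in high. The 3 libraries lowest in the family, low 3, high 1 and high 3, were its highest. RPL22L1 had 79.9 ± 19.6 CPM in high and 89.7 ± 13.0 in control, and RPL22, the gene it can stand in for, had 148 ± 61.3 and 193 ± 50.5 CPM (SD, n = 3 each). RPL26L1 averaged 36.5 ± 3.33 CPM in high and 34.1 ± 4.2 in control, and RPL39L 41.5 ± 0.430 and 41.2 ± 6.69 CPM. Of the 4 tested paralogs 3 lay above control in high (50.7% of all genes), with a median log2 difference of 0.11.

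Other genes tied to the family gave no calls either. Their rows were not summed with copies, and some held few counts or spread widely between libraries. Among the TOP mRNAs, EEF1B2 ran from 2.85 to 13.0 CPM in control and from 3.34 to 142 CPM in low. Among the biogenesis genes, NOP10 ran from 0.633 to 2.27 CPM in control. For such rows the absence of a call says little. Of 20 listed translation factors and other TOP mRNAs 0 were called and 0 had an unadjusted p under 0.05 in any treated group. In high 5 lay above and 15 below control (50.7% and 49.3% of all genes), with a median log2 difference of -0.05. Of 38 listed ribosome biogenesis genes, which build the subunits in the nucleolus, 0 were called and 0 had an unadjusted p under 0.05. They lay above control for 27 in low, 26 in medium and 27 in high (51.3%, 49.8% and 50.7% of all genes). Their medians were 0.10, 0.05 and 0.06. Of 10 genes of the mTORC1 and LARP1 arm 0 were called, with medians of 0.00, 0.02 and -0.02 from low to high.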

How the data were processed

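RNA-seq was done on 12 libraries of TK6 cells, enriched for polyadenylated RNA per the labels' protocols. Tools in the submitters' processing notes are HISAT2 2.2.1 with featureCounts 2.0.6 on GRCh38.p14, besides fastp 0.23.4 and MultiQC 1.27. Strand use, options and the handling of multiply aligned reads are not given in the sources used. The authors deposited raw counts per gene, with exon lengths, and CPM per library, which equalled the scaled count within 5e-05. In each CPM file 51 names differed from the count table, so names and values were taken from the counts.

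The members and gene lists were chosen with earlier results of these data known. Each member was summed with its copy rows. Genes kept by filterByExpr (12024) were scaled with TMM and fitted in 1 model of all 12 libraries with edgeR 4.0.16 (glmQLFit, glmQLFTest; R 4.3.3), with Benjamini-Hochberg adjustment over all genes and calls at an adjusted p below 0.05. The fit was also run on counts simulated independently for each gene. Those counts lack the variation that most members share, so the run cannot show how the fit handles it. Means and SDs are of CPM of all counts, and shares leave out the mitochondrial genome. Floors of 3 counts cover counting error only. Replicate numbers recur in each group, but correlations of same-numbered libraries ran from -0.42 to 0.63 and no label ties them, so they were not used as a block.

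Named members are the 4 of smallest p in each treated group, a fixed list by role and the paralogs, the 5 highest and lowest per kb, those at 0 and the 5 of widest spread; RPL32, RPL39, RPS27L and the members with copies or read-through rows were named after their values were seen, and some genes that this rule names are not reported here. Alternatives were DESeq2 1.42.0, limma 3.58.1 (voom and trend), other scaling, filters and sums of rows, a replicate block, fits of 2 groups alone, and leaving out each library in turn. Fits without low 3 and high 3 were added after seeing the data.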

Additional observations from a re-analysis of the deposited data

How the results depend on the processing

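No member was called in any of 81 fits of a treated group against control. The count of all genes called, 0 in every comparison in the edgeR fit used for the results above, changed by setting. With no filter beyond 1 count it was 3 in low, 7 in medium, 4 in high, 28 for any group and 1 for the trend. With DESeq2 it was 3, 9, 5, 16 and 1. With limma voom it was 1 in medium, in high and for any group, and with limma-trend on log2(CPM + 1) it was 1, 2, 1 and 2 in low, medium, high and any group. Fits of only the 2 groups compared gave 1 in low and 6 in medium. Without a composition factor 1 gene was called for any group. Without low 3 and high 3 there were 1 in low, medium and high and 2 for any group. The cause was not tested.

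With 1 library left out, called genes numbered 0 to 2 in each treated group, 0 to 4 for any group and 0 for the trend. Over the fits with 1 library left out, the members' median log2 difference ran in low from -0.184 to 0.162 and in medium from -0.127 to 0.0937. In high it ran from -0.39 to -0.0123. Mean shares lay between 5.57% and 6.22% in control, between 5.33% and 6.38% in low, between 5.73% and 6.17% in medium, and between 4.76% and 5.78% in high. Differences in high turned sign for RPS9 (-0.123 to 2.72), RPLP1 (-1.06 to 0.0443), RPSA (-0.661 to 0.00952), RPL11 (-0.405 to 0.00847), RPL5 (-0.173 to 0.0458) and RPL22L1 (-0.345 to 0.0176).

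Without low 3 and high 3 the differences in high were -0.129 for RPS9, 0.038 for RPLP1, 0.00357 for RPSA and 0.00185 for RPL22L1, and RPS9 was at -0.44 with the symbol's row alone. As a percent of all counts, mean shares in the order of concentration were 4.92 (control), 4.75, 4.85 and 4.34 (high). With the replicate number as a block, 0 members and, for any group, 2 genes were called, and the members' median in high was -0.175; 5 of 12 libraries were closest to their own number. The block changed no call of a member.

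With 3 libraries a group, the median standard error of a member's log2 difference was 0.23.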

Other observations

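Among the 35 rows named as pseudogenes of members, RPL13AP5 had the most counts and FAUP4 the next. FAUP4 had 309, 149 and 199 counts in the control libraries, 303, 147 and 467 in low, 283, 277 and 248 in medium and 532, 300 and 523 in high. Counts are not scaled by depth here. Within low, the library with the smallest share of ribosomal protein genes, low 3, had the most FAUP4 counts, and FAU itself was lowest there among the low libraries, at 165 CPM against 222 and 210 CPM in low 1 and low 2.

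Small nucleolar RNA genes lie within many members: 29 of the 83 held 60 rows of these RNAs in the table.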
